A study of Mus musculus with 12 samples.

Results

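Satellite cells, the resident stem cells of adult skeletal muscle, were set against the muscle progenitors of the mouse embryo at E14.5 to describe how the 2 native stages differ. The comparison used 6 of the series' 12 RNA-seq libraries, 3 per group, and 12699 of 23284 gene symbols. These were the genes with at least 1 FPKM (fragments scaled to transcript length and to the mapped total) in at least 3 of the 12 libraries. Both groups were labelled with the strain 129P2/OlaHsd, with no allele or agent named, and both were sorted from digested tissue as CD31- CD45- a7-Integrin+ VCAM+ mononuclear cells. The embryo group came from whole embryos of unstated sex, and the adult group from total hindlimbs of 8-week-old males. Stage, body site and sex of origin can therefore not be told apart in any difference below. The other 6 libraries, from the same sort of 3-week-old teratomas and of tibialis anterior muscle that had received teratoma cells 1 month before, entered the fit only for its estimate of the spread and the last comparison. The design text calls the libraries biological replicates and does not say whether animals were separate or pooled. The p-values reflect the spread among these libraries, part of which may be technical.

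Muscle progenitors of the embryo divide and supply the growing fibres, under the control of Pax3 and Pax7 and then of the myogenic helix-loop-helix factors Myf5, Myod1 and Myog. Around birth a share of them settles between the fibre and its basement membrane, leaves the cell cycle and becomes the satellite cell. Notch signalling keeps these cells undifferentiated, while FGF, BMP, Wnt and IGF ligands steer division and differentiation. A satellite cell re-enters the cycle after injury or after it is taken from its fibre.

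Most genes with a call were lower in adult cells as the values were deposited, and that balance depended on how libraries were scaled. A linear model in limma on log2(FPKM + 1), in which a gene was called at a Benjamini-Hochberg adjusted p under 0.05, called 6699 genes (52.8%). Of all genes tested, 2007 (15.8%) were higher and 4692 (36.9%) lower in adult cells. With median-ratio scaling, which sets the typical gene level between libraries, 3278 (25.8%) were higher and 3307 (26%) lower. All 2007 increases and the 3307 decreases kept their call and direction under both scalings. The median change of all genes was -0.42 on the log2 scale and -0.04 after that scaling. A list's median is read against these values below, and counts after median-ratio scaling follow most list counts of adult against embryo. Without overlap between the groups, 2343 genes (18.5%) were higher in all 3 adult libraries and 5086 (40.1%) lower. At least 5 FPKM in every adult library and under 1 in every embryo library were found for 81 genes, and the reverse for 240. Changes are differences of log2(FPKM + 1), a scale that shrinks the change of weakly expressed genes, and 3 values in a row are replicates 1 to 3. In sorted bulk samples, fewer cells of a type and less RNA per cell cannot be told apart.

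The libraries differed in ways that bear on these counts. Small and ribosomal RNA took 39.2% to 97.6% of the FPKM sum in embryo and 82.3% to 97.7% in adult libraries. Between 10509 and 11434 genes reached 1 FPKM in embryo and 9495 to 9624 in adult libraries, and read depth is unknown. Embryo replicate 2 listed 74 genes at 0 where both other embryo libraries had at least 5 FPKM, against 6 to 27 in the other 5. Correlations across genes (a description, since genes are not independent) were 0.860 to 0.920 among embryo libraries, 0.939 to 0.950 among adult ones and 0.615 to 0.707 between the groups. The sort showed in the genes of its α7-integrin, VCAM and CD45. Itga7 (α7-integrin) was at 10.6, 9.73 and 10.8 in embryo and 61.6, 61.8 and 62.6 in adult, and Vcam1 at 48.8, 57.7 and 52.4 in embryo and 106, 117 and 83.9 in adult, while Ptprc, which encodes CD45, was at most 0.0393 FPKM in all 6. Of 10 satellite cell markers, 7 rose and 1 fell (9 and 0 with median-ratio scaling), with a median of 2.00.

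**Figure D1:**
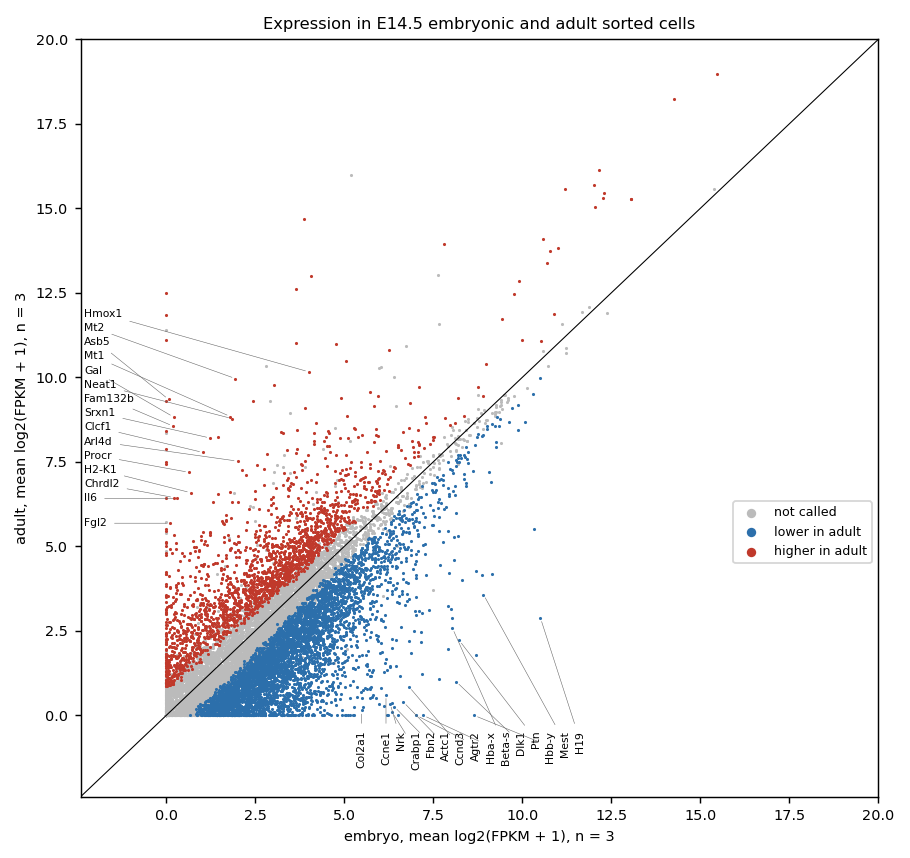
Mean log2(FPKM + 1) of 3 embryo libraries (x axis) and 3 adult libraries (y axis) for 12699 genes. Red points were called higher in adult, blue points lower and grey points not called, the diagonal marks equal levels, and the 15 largest changes in each direction under the naming rule are labelled.

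Most of the largest increases were in genes with embryo values of a few FPKM or less. After Asb5, Gal, Fam132b, Mt2 and Mt1, the next largest increases were in Srxn1, Neat1, Clcf1, Procr, Chrdl2, Hmox1, Il6, H2-K1, Fgl2 and Arl4d. The nuclear noncoding RNA Neat1, which builds paraspeckles, stood at 5.39, 0.434 and 4.13 FPKM in embryo and 383, 375 and 589 in adult libraries (log2 change 6.93 ± 0.43 SE, adjusted p = 1.85e-07). Clcf1, a cytokine of the interleukin 6 family, had 1.47, 0 and 2.48 against 247, 169 and 251 (log2 change 6.75, adjusted p = 1.39e-07). Procr, the endothelial protein C receptor and a marker of several stem cell populations, went from 0.816, 0.179 and 0.771 in embryo to 205, 162 and 92.4 in adult (log2 change 6.55, adjusted p = 5.25e-08). Each adult value of these 3 genes was more than 10 times any embryo value. Chrdl2, a secreted BMP binder, stood at 0.369, 0 and 0.165 in embryo and 68.6, 83.8 and 111 in adult, and Arl4d, a small GTPase, at 2.57, 1.26 and 7.04 in embryo and 182, 186 and 181 in adult (adjusted p at most 1.06e-06).

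Decreases of the greatest size beyond Hbb-y, H19, Hba-x, Dlk1 and Agtr2 included muscle, growth factor and matrix genes. Actc1, the actin of heart and embryonic muscle, was at 98.9, 132 and 77.4 in embryo and 0.132, 1.01 and 0 in adult (log2 change -6.27, adjusted p = 4.28e-08). Ptn, the heparin-binding growth factor pleiotrophin, had 292, 279.9 and 326 against 4.38, 2.25 and 4.81 (log2 change -6.01, adjusted p = 2.08e-08). Crabp1, which binds retinoic acid in the cytoplasm, was at 76.7, 74.2 and 91.7 in embryo and at 0, 0 and 0.213 in adult libraries, and Nrk, an embryonic kinase gene on the X chromosome, at 87.2, 84.9 and 61.8 in embryo and 0.230, 0.244 and 0.352 in adult. No adult library came near an embryo library in these 4 genes. Ccnd3, Ccne1, Fbn2, Mest, Col2a1 and the globin entry Beta-s complete the 15, and Beta-s stood at 171, 337 and 313 in embryo and 0, 30.8 and 5.73 in adult. The 10 erythroid markers summed to 386 to 2093 FPKM in embryo and 5.32 to 26.8 in adult libraries, where 5 of them, Hbb-y and Hba-x included, were listed at 0 throughout.

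Myogenic regulators did not move as a block. Of 47 tested, 7 rose and 25 fell (12 and 21 with median-ratio scaling), with a median of -0.68. The determination factors were on the side of the increases: Myod1 was at 23.6, 19.8 and 11.2 in embryo and 423, 442 and 343 in adult (log2 change 4.45 ± 0.29 SE, adjusted p = 2.32e-07), and Myf5 at 12.9, 10.04 and 15 in embryo and 40.8, 47.1 and 38.1 in adult (1.67, adjusted p = 3.30e-05). Myog, which drives terminal differentiation, was at 19.4, 33.2 and 10.1 in embryo and 4.08, 4.03 and 1.97 in adult (log2 change -2.22, adjusted p = 0.000406). The groups did not overlap in these 3 genes. Pax7 was at 14.7, 14.3 and 13.1 in embryo and 8.24, 9.02 and 10.1 in adult (log2 change -0.58, adjusted p = 0.0238), a call lost with either rescaling (-0.08 with median ratios) and when adult replicate 1, adult replicate 2 or embryo replicate 1 was left out (log2 changes -0.51, -0.57 and -0.54). Pax3 was not called (adjusted p = 0.0655; called lower without adult replicate 1 or embryo replicate 3), and neither was Nfix (adjusted p = 0.116; called higher with median-ratio scaling and without embryo replicate 1).

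Members of the Mef2 family of myogenic factors moved in opposite directions. They bind with the helix-loop-helix factors at muscle genes. Mef2d and Mef2a rose, from 23.6, 21.7 and 19.4 in embryo to 73.9, 56.1 and 53.3 in adult and from 16.5, 21.1 and 20.0 in embryo to 45.7, 39 and 34.5 in adult (adjusted p = 2.06e-05 and 0.00597), while Mef2c fell from 3.38, 5.28 and 6.31 in embryo to 0.549, 1.0 and 0.325 in adult (adjusted p = 6.59e-05). Among 9 genes of the network of Eya, Dach and Six2-related factors, which act upstream of the myogenic factors, 0 rose and 6 fell (2 and 5 with median-ratio scaling). Six2 and Six5 were the largest decreases there (-2.13 and -2.31). Of the 4 Tead factors, partners of the Hippo pathway, Tead2 alone was called: it was at 53.3, 34.2 and 58.5 in embryo and 2.41, 1.21 and 2.02 in adult (log2 change -4.10, adjusted p = 1.31e-07), against 29.2, 28.7 and 29.2 in embryo and 22.5, 22.3 and 19.5 in adult for Tead1, the most abundant of the family in adult cells, which was called lower with the 2 groups fitted alone or small RNA left out. Of 14 repressors of myogenic differentiation, 3 rose and 10 fell (the same counts with median-ratio scaling). Twist1 was at 96, 54.1 and 99.6 in embryo and 5.54, 4.37 and 0.775 in adult, and Id1, Id2 and Id3 fell by 1.93, 1.39 and 1.39 on the log2 scale. Msc, the myoblast repressor musculin, was the largest increase of the group, from 33.2, 17.2 and 24.5 in embryo to 79.5, 83.5 and 66.2 in adult (adjusted p = 0.00018).

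The Notch pathway was split between its receptors and its targets. Receptors are cut by ligand on a neighbouring cell, and the released part switches on Hes and Hey repressors. Notch1 was at 15.1, 19 and 30.5 in embryo and 40.7, 37.2 and 46.4 in adult, and Notch3 at 41.8, 35.7 and 46.6 in embryo and 66.8, 74 and 66.1 in adult (log2 changes 0.96 and 0.73, adjusted p = 0.0039 and 0.00366). Notch2, at 28.5, 28.3 and 35.3 in embryo and 27.4, 27.1 and 33.8 in adult, had overlapping groups and was not called, but was called higher after median-ratio scaling (0.47). Among 7 targets 1 rose and 6 fell (1 and 5 with median-ratio scaling). The target that rose was Hey1, at 26.8, 29.5 and 30.3 in embryo and 112, 88.4 and 97.4 in adult (log2 change 1.74 ± 0.25 SE, adjusted p = 0.000121). Hes1 had 26.3, 33.2 and 27.2 against 7.34, 3.92 and 5.65 (log2 change -2.20, adjusted p = 2.06e-05), and Hey2 2.63, 12 and 9.21 against 0.211, 0.677 and 0.113 (adjusted p = 0.000406). Heyl differed less than the other targets, at 16.8, 17 and 19.2 in embryo and 8.36, 12 and 10.5 in adult, a call lost with either rescaling. Of 6 ligands, 1 rose and 3 fell under both scalings: Dll1 was at 2.97, 2.64 and 1.6 in embryo and 5.51, 3.74 and 6.28 in adult, Jag2 at 4.17, 2.59 and 4.94 in embryo and 0.575, 0.125 and 0.615 in adult. Lfng, a sugar transferase that tunes which ligand a receptor answers, fell from 15.8, 64.7 and 25.5 in embryo to 0.671, 1.17 and 2.26 in adult (log2 change -3.76, adjusted p = 2.40e-05). Over the pathway, 6 of 33 genes rose and 13 fell (11 and 10 with median-ratio scaling).

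FGF receptors differed in direction. Fgfr1, the main FGF receptor of satellite cells, was at 35.7, 27.3 and 38.1 in embryo and 274, 285 and 319.9 in adult (log2 change 3.09 ± 0.16 SE, adjusted p = 4.48e-08). Fgfr4, typical of fetal muscle progenitors, was at 58, 92.7 and 42.3 in embryo and 126, 126 and 124 in adult (log2 change 1.03, adjusted p = 0.00479), and Fgfr2 at 6.98, 6.42 and 11.5 in embryo and 1.3, 1.68 and 1.09 in adult (log2 change -1.95, adjusted p = 0.000169). On the per-length scale of FPKM, Fgfr4 was thus above Fgfr1 in all 3 embryo libraries and below it in all 3 adult libraries. Of 8 feedback inhibitors of the pathway, 3 rose and 0 fell (5 and 0 with median-ratio scaling). They were Spry2 (40.8, 44.7 and 57.9 to 152, 146 and 105), Dusp4 (7.74, 11.8 and 10.6 to 22.2, 22.4 and 26.8) and Spred1 (26.8, 23.5 and 35.6 to 47.7, 53.5 and 58.6), with adjusted p at most 0.00464. Spry1, which is linked to the return of satellite cells to rest, was at 55.2, 51.6 and 41.1 in embryo and 35.4, 40.2 and 30.0 in adult and not called (adjusted p = 0.0638; called as lower without embryo replicate 3, with library weights or without small RNA). The transcription factor genes Etv1, Etv4 and Etv5, which FGF signalling induces, were lower (-2.10, -1.11 and -0.77). Only the first of these calls held with median-ratio scaling, and that of Etv4 was also lost without adult replicate 1 or embryo replicate 3 (log2 changes -0.90 and -0.82). Of 5 ligands 0 rose and 2 fell (1 and 1 with median-ratio scaling), among them Fgf10 (4.45, 3.24 and 5.38 to 0.524, 0.352 and 0.212).

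In the TGF-beta and BMP families, 15 of 53 genes rose and 13 fell (27 and 9 with median-ratio scaling), and ligands moved both ways. Bmp4 was at 3.11, 7.05 and 5.53 in embryo and 34.9, 31 and 49.3 in adult, and Bmp6 at 1.48, 0.610 and 1.86 in embryo and 14.2, 25.1 and 24.5 in adult (log2 changes 2.69 and 3.26, adjusted p at most 5.26e-06). Bmp7 went the other way, at 10.5, 5.82 and 10.9 in embryo and 0, 0.0916 and 0 in adult, and so did Mstn, the growth-limiting ligand myostatin, at 12, 29.5 and 5.87 in embryo and 0.113, 0.111 and 0 in adult (log2 changes -3.24 and -3.70, adjusted p at most 2.21e-05). Of 13 secreted inhibitors and binding proteins 6 rose and 3 fell (7 and 3 with median-ratio scaling). The BMP antagonist Nog was at 14.49, 21.8 and 6.67 in embryo and 0, 0.521 and 0.972 in adult, Fst (follistatin) at 3.38, 3.65 and 5.71 in embryo and 11, 10.9 and 12.1 in adult and Ltbp4, which anchors latent TGF-beta in the matrix, at 39, 26.9 and 32.5 in embryo and 151, 154 and 160.3 in adult (log2 changes -3.27, 1.26 and 2.22, adjusted p at most 0.000794). Of 9 target genes 3 rose and 3 fell (4 and 3 with median-ratio scaling). Tgif1 and Skil, induced by TGF-beta, rose by 2.89 and 1.45 on the log2 scale, with Tgif1 at 11.3, 18.4 and 27.2 in embryo and 129, 141 and 148 in adult. Id1, induced by BMP, had 92.9, 55.5 and 102 against 15.4, 22.3 and 24.8, and the BMP-arm inhibitor Smad6 7.73, 13.3 and 10.05 against 0.742, 0.543 and 2.82 (adjusted p = 3.76e-05 and 8.16e-05). Of 10 receptors 2 rose and 4 fell (4 and 0 with median-ratio scaling), and the 4 became 2 without adult replicate 3 or embryo replicate 1.

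Wnt pathway genes were mostly lower in adult cells: 4 of 45 rose and 26 fell (6 and 22 with median-ratio scaling), with a median of -1.004 against -0.42 for all genes. Of 11 ligands and R-spondins 0 rose and 7 fell (0 and 5), of 17 receptors 2 and 10 (3 and 8) and of 8 target genes 0 and 5 (1 and 5, each pair in brackets with median-ratio scaling). Wnt5a, a ligand of the arm that works without beta-catenin, was at 25.5, 22.2 and 33.6 in embryo and 2.0, 0.482 and 1.28 in adult (log2 change -3.68 ± 0.31 SE, adjusted p = 1.49e-06), and its receptor gene Ror2 at 6.92, 4.13 and 11.7 in embryo and 0.577, 0.489 and 1.47 in adult (adjusted p = 0.000393). Among Frizzled receptors, Fzd2 was at 26.4, 15.1 and 36.2 in embryo and 0.179, 1.64 and 1.19 in adult and Fzd7, the receptor of the satellite cell's response to Wnt7a, at 30.9, 27.8 and 36.3 in embryo and 7.58, 6.72 and 9.55 in adult (log2 changes -3.74 and -1.87). Fzd5 was the exception, with 1.59, 1.39 and 1.86 against 9.73, 10.8 and 10.8 (log2 change 2.13, adjusted p = 3.61e-06). The secreted decoys Sfrp1 and Sfrp2 were also lower, Sfrp2 at 158, 141 and 201 in embryo and 12, 8.11 and 4.71 in adult, while Sfrp4 was higher, at 0.923, 1.36 and 1.33 in embryo and 9.53, 9.55 and 7.6 in adult (adjusted p = 4.79e-06 and 7.85e-06). The Wnt feedback genes Apcdd1, Nkd1 and Lef1 fell by 3.87, 2.40 and 1.75 on the log2 scale, and no adult value of the 3 reached an embryo value.

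**Figure D2:**
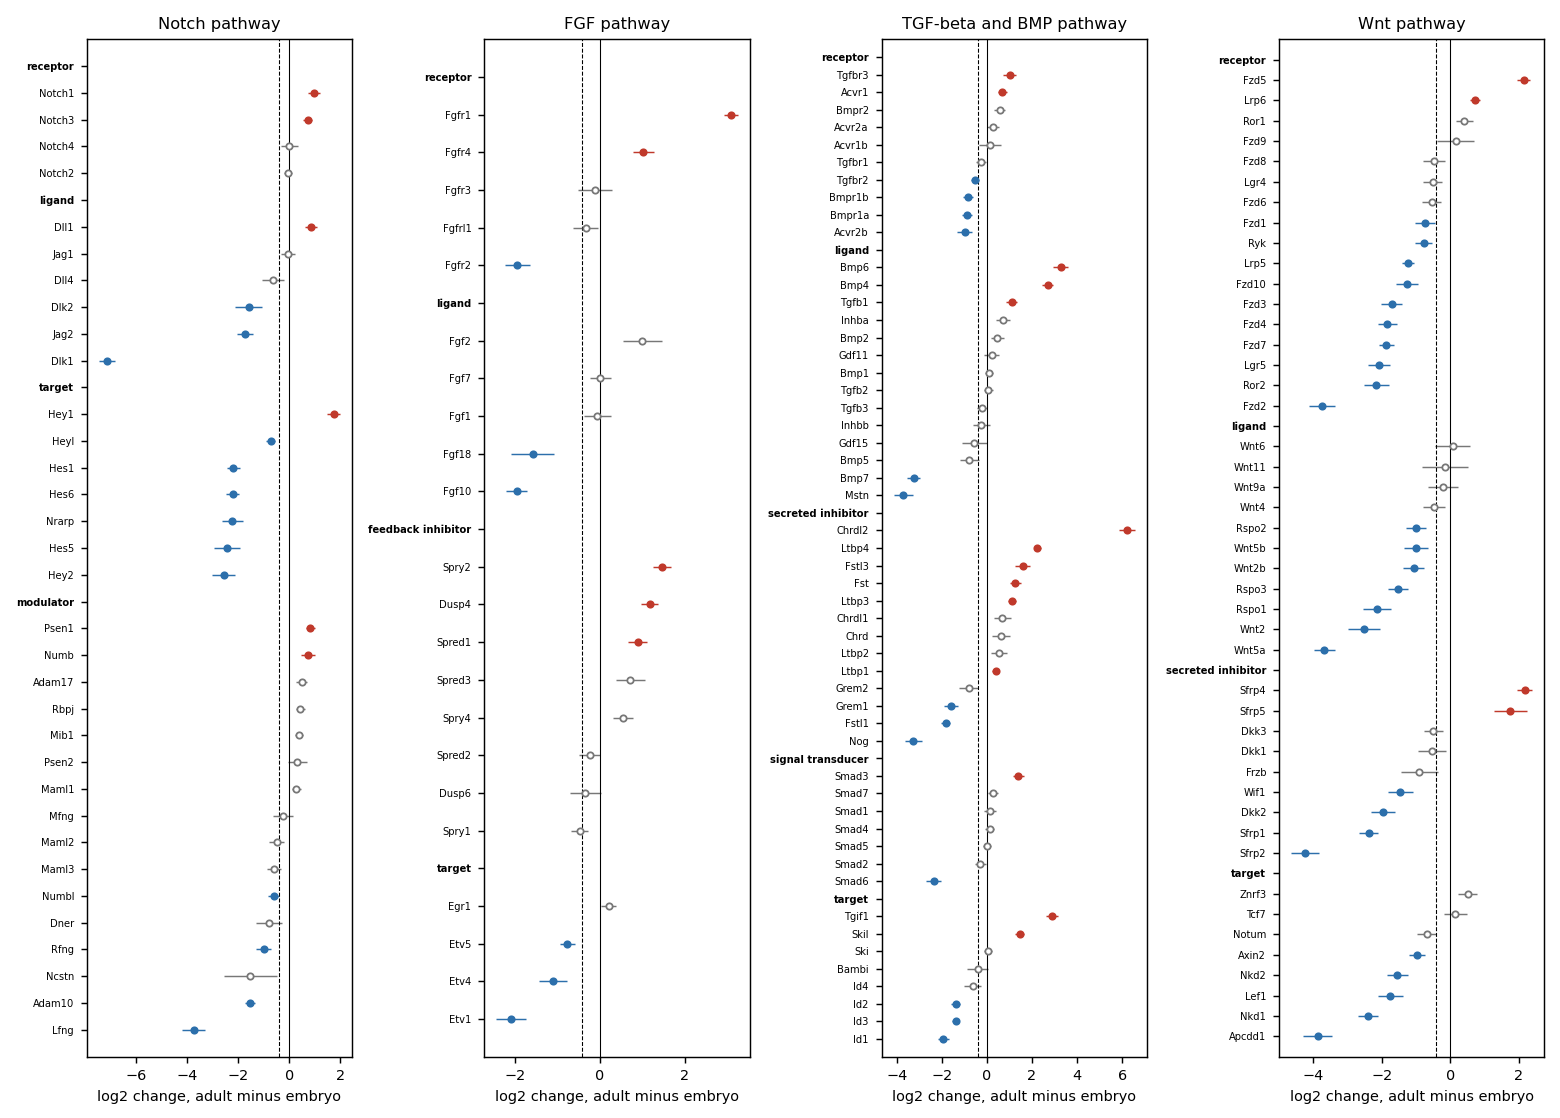
Log2 change from embryo to adult (x axis, log2(FPKM + 1) scale, bars ± 1 SE from the model of 12 libraries) of tested members of the Notch, FGF, TGF-beta and BMP, and Wnt lists, grouped by role. Filled points were called, open points were not, and the dashed line is the median of all genes, -0.42.

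The IGF axis, the main fetal growth system, was lower at most levels. Igf2 was at 1150.4, 1415 and 1323 in embryo and 42, 40.7 and 53.4 in adult (log2 change -4.81 ± 0.19 SE, adjusted p = 1.11e-08), and its clearance receptor gene Igf2r at 93.6, 102 and 124 in embryo and 23.9, 25.7 and 23.2 in adult (log2 change -2.08, adjusted p = 4.60e-07). Igf1 and its receptor gene Igf1r differed less (-0.99 and -0.61), and both calls were lost with median-ratio scaling (-0.47 and -0.10). Binding proteins, which hold IGFs in the matrix, split. Igfbp2 was at 31.7, 32.8 and 47.9 in embryo, and each adult library listed it at 0, and Igfbp4 at 218, 192 and 255 in embryo and 37.8, 32.4 and 32.3 in adult. Igfbp6, which prefers IGF2, rose from 2.87, 4.74 and 0.293 in embryo to 31.3, 39.5 and 32.3 in adult and Igfbp7 from 17, 0 and 15.3 in embryo to 176, 158 and 137 in adult (adjusted p = 5.65e-05 and 0.000542). The insulin receptor substrates went apart, Irs1 from 27.7, 25.7 and 30.5 in embryo to 4.42, 5.77 and 4.42 in adult and Irs2 from 30.7, 19.9 and 28.9 in embryo to 76.9, 72 and 75.8 in adult (log2 changes -2.31 and 1.49, adjusted p at most 2.28e-05). Of the 16 genes of the axis, 3 rose and 11 fell (3 and 8 with median-ratio scaling).

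Receptor genes for hormones, cytokines and growth factors moved both ways. Of 68 receptors outside the pathways above, 27 rose and 22 fell (31 and 15 with median-ratio scaling). Of 14 cytokine receptors, 7 rose and 4 fell (8 and 2). Osmr, the receptor of oncostatin M, was at 0.952, 1.42 and 0.176 in embryo and 29.5, 31.5 and 30.9 in adult, and Tnfrsf12a, which binds TWEAK, at 24.4, 29.1 and 16.5 in embryo and 308, 382 and 302 in adult (log2 changes 4.16 and 3.80, adjusted p at most 5.61e-07). Il6ra and Il6st, the 2 chains of the interleukin 6 receptor, rose by 2.08 and 1.51 on the log2 scale. Among 18 nuclear receptors, 8 rose and 4 fell (9 and 2): Esr1, the estrogen receptor, was at 0.112, 0.0440 and 0.976 in embryo and 30.1, 17.7 and 22.6 in adult and Rara, a retinoic acid receptor, at 15.3, 9.2 and 17.3 in embryo and 6.06, 5.44 and 6.09 in adult (log2 changes 4.18 and -1.08, adjusted p at most 0.00102). Ret, a receptor tyrosine kinase of GDNF ligands, had 0.0233, 0 and 0.0790 in embryo and 10.03, 12.1 and 9.82 in adult libraries. Calcr, the calcitonin receptor of resting satellite cells, was at 0.923, 0 and 0 in embryo and 11.2, 14.51 and 10.7 in adult (log2 change 3.39, adjusted p = 1.65e-05). Met, the HGF receptor, and Cxcr4 rose by 1.53 and 2.33. Pdgfra, Pdgfrb and Erbb3, receptors typical of fibroblasts, mural cells and glia, fell by 2.02, 2.23 and 2.52. Summed markers of those cells were at 1833 to 2648 FPKM in embryo and 1006 to 1468 in adult for fibroblasts, 136 to 218 and 74.2 to 98.1 for mural cells, and 12.3 to 34.3 and 24.0 to 36.4 for glia. Their part in these decreases was not tested.

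Genes of the circadian clock, a loop in which Clock and Arntl drive the repressors Per, Cry and Nr1d, were higher in adult cells. Of 21 tested, 14 rose and 1 fell (14 and 1 with median-ratio scaling, 15 and 0 with quantile normalization), with a median of 1.02. Arntl was at 0.510, 0 and 2.22 in embryo and 37.2, 35.3 and 32.9 in adult (log2 change 4.41 ± 0.36 SE, adjusted p = 1.31e-06). Its partner genes Npas2 and Clock were at 0.0917, 0 and 0.594 in embryo and 13.1, 12.1 and 13.9 in adult and at 6.09, 9.44 and 7.99 in embryo and 21.7, 16.1 and 19.2 in adult (log2 changes 3.54 and 1.19, adjusted p at most 0.00136). Nr1d1, which represses Arntl, was at 1.35, 2.21 and 3.28 in embryo and 66.9, 36 and 60.5 in adult (log2 change 4.08, adjusted p = 5.08e-07), and Per2 and Cry1 at 1.25, 1.66 and 1.52 in embryo and 5.3, 8.98 and 7.44 in adult and at 10.01, 9.81 and 6.92 in embryo and 33.7, 27 and 22.2 in adult (adjusted p at most 0.000632). Per1 was the weakest call, at 13, 12.3 and 17.3 in embryo and 19.7, 18.8 and 21.6 in adult (log2 change 0.48, adjusted p = 0.0416), lost without any 1 of 5 of the 6 libraries, with the replicate block, with the 2 groups fitted alone and with small RNA left out (adjusted p up to 0.12 over the alternatives). The repressor gene Bhlhe41 fell, from 2.29, 6.68 and 3.25 in embryo to 1.1, 0.411 and 1.12 in adult, a call lost with quantile normalization. The hour at which tissue was taken is not given in the labels.

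Genes that glucocorticoids induce were higher as well, their receptor gene included. Of 19 tested, 14 rose and 0 fell under both scalings, with a median of 1.52. Nr3c1, the glucocorticoid receptor, was at 6.58, 11.2 and 8.64 in embryo and 17, 18.4 and 20.6 in adult (log2 change 1.03, adjusted p = 0.00069). Klf9 was at 4.67, 5.85 and 6.74 in embryo and 102, 102 and 131 in adult and Sgk1, a kinase of salt and nutrient handling, at 14.2, 20.8 and 36.4 in embryo and 326, 316 and 388 in adult (log2 changes 4.06 and 3.89, adjusted p at most 6.81e-07). Errfi1, a feedback inhibitor of EGF receptors, went from 31.2, 28.4 and 38.8 in embryo to 493, 483 and 424 in adult, and Glul, glutamine synthetase, from 18.8, 19.8 and 32 in embryo to 267, 248 and 238 in adult. The groups were far apart in these 4 genes, with every adult value more than 5 times every embryo value. Fkbp5 and Tsc22d3, equally well-known targets, stood at 8.84, 7.49 and 7.98 in embryo and 8.15, 6.4 and 7.05 in adult and at 10.8, 2.52 and 5.91 in embryo and 2.57, 5.04 and 4.88 in adult, and neither was called (adjusted p = 0.507 and 0.421). Several of the others, such as Cebpb and Dusp1, also answer other signals. Fbxo32, the muscle atrophy ubiquitin ligase atrogin, was at 0.508, 0.933 and 0.660 in embryo and 8.25, 8.97 and 9.42 in adult (log2 change 2.54, adjusted p = 3.00e-06).

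**Figure D3:**
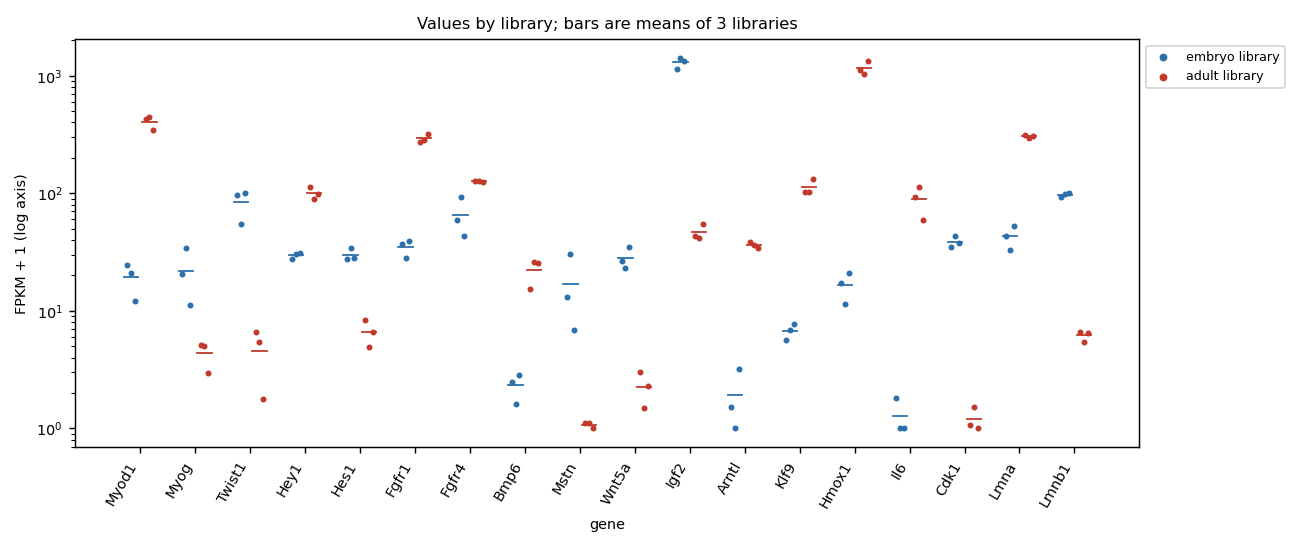
FPKM (y axis, log scale of FPKM + 1) of 18 genes in each embryo library (blue) and adult library (red), with the group mean as a bar. In each gene shown the 3 adult points lie on one side of the 3 embryo points.

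Genes of oxidative defence moved both ways. Of 34 genes 13 rose and 12 fell (16 and 8 with median-ratio scaling). Some of the increases are known targets of Nrf2, a stress-stabilised factor that binds antioxidant response elements. Srxn1 (sulfiredoxin) was at 2.49, 0.302 and 1.88 in embryo and 326, 274 and 286 in adult, and Hmox1 (haem oxygenase) at 16.1, 10.5 and 20.1 in embryo and 1111, 1028 and 1322 in adult (log2 changes 6.97 and 6.16, adjusted p at most 9.94e-08). Gclc and Gclm, which start glutathione synthesis, were at 3.67, 5.39 and 6.32 in embryo and 40.8, 32.4 and 34.9 in adult and at 4.95, 0.650 and 9.57 in embryo and 47.8, 40.4 and 43.4 in adult, and Txnrd1 at 37.2, 44.8 and 53.1 in embryo and 334, 307 and 306 in adult (adjusted p at most 0.000185). Nqo1, another known Nrf2 target, was low in both groups, at 0.681, 0 and 0.499 in embryo and 2.79, 0.177 and 0 in adult, and not called (adjusted p = 0.695). The secreted enzyme genes Gpx3 and Sod3 rose too, from 13.5, 3.57 and 13 in embryo to 309, 339 and 323 in adult and from 1.91, 8.11 and 0.228 in embryo to 66.7, 48 and 49.3 in adult. Among the decreases were peroxide-removing enzymes of cytosol, endoplasmic reticulum and peroxisome. Prdx4 was at 46, 35.2 and 73.9 in embryo and 6.81, 5.26 and 4.78 in adult, Prdx2 at 146, 127 and 193 in embryo and 25.4, 23.4 and 31.3 in adult and Cat (catalase) at 19.7, 27.2 and 30.4 in embryo and 7.18, 8.19 and 8.5 in adult (log2 changes -2.94, -2.48 and -1.56, adjusted p at most 6.97e-05). Sqstm1, an autophagy receptor that feeds the Nrf2 pathway, went from 45.1, 54.7 and 70.4 in embryo to 537, 628 and 535 in adult (log2 change 3.32, adjusted p = 8.13e-08). Of 21 autophagy genes 8 rose and 4 fell (10 and 3 with median-ratio scaling).

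The promoters of Srxn1 and Gclm are shown as examples of increases that hold one of a pair of searched motifs, an AP-1 site in Srxn1 and an antioxidant response element in Gclm. The 250 bases before the RefSeq start (GRCm38.p6) are chr2:152105274-152105523, plus strand, for Srxn1 and chr3:122245307-122245556, plus strand, for Gclm. Capitals mark AP-1 sites (TGACTCA) in the first and an antioxidant response element (TGACNNNGC) in the other, on either strand. An element can overlap an AP-1 site.
Srxn1: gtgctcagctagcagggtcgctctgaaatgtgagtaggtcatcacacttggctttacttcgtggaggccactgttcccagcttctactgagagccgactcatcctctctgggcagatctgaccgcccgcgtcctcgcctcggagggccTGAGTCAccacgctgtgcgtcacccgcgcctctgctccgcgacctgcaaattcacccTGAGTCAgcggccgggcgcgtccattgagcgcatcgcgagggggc
Gclm: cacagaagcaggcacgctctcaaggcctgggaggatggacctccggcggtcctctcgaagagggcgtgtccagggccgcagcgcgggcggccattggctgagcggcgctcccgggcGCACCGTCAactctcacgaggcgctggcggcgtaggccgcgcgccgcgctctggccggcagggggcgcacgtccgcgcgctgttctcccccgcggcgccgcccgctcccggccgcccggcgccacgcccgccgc
The Srxn1 sites end 95 and 38 bases before the start, and the Gclm element 125 bases before it. Of 8 increases with a promoter in the table, 2 held an AP-1 site (25%) and 3 an antioxidant element (37.5%), against 4.46% and 10.2% of 32851 promoter windows of that length. Of 10 decreases 1 held an AP-1 site (10%) and 2 an antioxidant element (20%), and of 7 uncalled members 2 (28.6%, Prdx1 and Gstp1) and 1 (14.3%). As deposited, the share with an AP-1 site was thus no higher among the increases than among the uncalled members. Prdx1 was called higher with median-ratio scaling (log2 change 0.82), so these shares depend on the scaling. These motifs were searched after the values were known, and a match is a description of letters only.

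Metallothioneins, small proteins that bind zinc and copper, were among the largest increases. Mt2 was at 1.55, 4.58 and 3.0 in embryo and 1197, 1093 and 761 in adult and Mt1 at 11.2, 0 and 2.5 in embryo and 509, 564 and 334 in adult (log2 changes 8.02 and 7.04, adjusted p at most 2.54e-06). Slc39a14, a zinc and iron importer that inflammation induces, went from 3.98, 5.9 and 4.34 in embryo to 95.4, 98.9 and 103 in adult (log2 change 4.14, adjusted p = 5.91e-08), and the importer Slc39a10 from 12.9, 19.6 and 19.1 in embryo to 4.99, 5.86 and 5.86 in adult (log2 change -1.45). Of 12 genes of zinc handling 5 rose and 2 fell (7 and 1 with median-ratio scaling).

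Cytokine and NF-kB response genes rose without one falling: 17 of 24 rose and 0 fell (20 and 0 with median-ratio scaling), with a median of 1.28. In this pathway inflammatory signals release the NF-kB factors, which switch on cytokines and their own inhibitors. Il6 was at 0.829, 0 and 0 in embryo and 92, 113 and 58.6 in adult, Cxcl1, a chemokine for neutrophils, at 24, 10.9 and 10.02 in embryo and 650.1, 743 and 332 in adult and Ptgs2, which makes prostaglandins, at 2.98, 3.25 and 0.748 in embryo and 55.4, 59.3 and 38.2 in adult (log2 changes 6.13, 5.20 and 4.05, adjusted p at most 2.88e-06). The NF-kB subunit genes Nfkb1, Nfkb2 and Relb were at 7.67, 5.87 and 7.69 in embryo and 92.9, 98.2 and 73.5 in adult, at 3.7, 7.97 and 6.42 in embryo and 51.3, 57.7 and 35.4 in adult, and at 3.53, 5.8 and 3.66 in embryo and 20.2, 23.5 and 20.9 in adult (adjusted p at most 4.20e-05). The inhibitor gene Nfkbia had 11.3, 19.4 and 22.3 against 38.3, 50.1 and 46.9 (adjusted p = 0.000606). All adult libraries were above all embryo libraries in these 7 genes. Stat3 and Socs3, factor and inhibitor of the interleukin 6 arm, rose by 1.84 and 1.06 on the log2 scale. Leukocyte markers summed to 4.79 to 11.4 FPKM in embryo and 7.31 to 15.7 in adult, where 6 of 10, Ptprc included, were listed at 0 in every library. Among the 6 tested leukocyte markers, 1 was called higher in adult and 0 lower under both scalings. With single libraries left out, 0 or 1 was called higher.

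NF-kB sites were searched as a pair of motifs of 10 letters, the ones in capitals here, on both strands of the 250 bases before each start. The promoters of Nfkb2 (chr19:46305680-46305929, plus strand) and Cxcl1 (chr5:90890995-90891244, plus strand) are shown because each holds 1 such site, in capitals.
Nfkb2: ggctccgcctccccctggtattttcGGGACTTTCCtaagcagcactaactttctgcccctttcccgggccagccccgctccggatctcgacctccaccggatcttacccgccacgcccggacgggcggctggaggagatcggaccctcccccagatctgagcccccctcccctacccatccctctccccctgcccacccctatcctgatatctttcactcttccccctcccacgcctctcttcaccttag
Cxcl1: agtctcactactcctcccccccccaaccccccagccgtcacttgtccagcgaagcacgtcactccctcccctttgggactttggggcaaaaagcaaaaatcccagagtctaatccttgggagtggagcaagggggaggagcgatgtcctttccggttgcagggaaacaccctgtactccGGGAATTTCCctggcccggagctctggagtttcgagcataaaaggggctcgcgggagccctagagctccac
These sites end 215 and 61 bases before the start. Among 12 increases with a promoter in the table, the first motif was found in 1 (8.33%) and the other in 2 (16.7%, Nfkbia and Cxcl1), against 0.14% and 0.0852% of all windows. Among 6 uncalled members both counts were 0, which says only that these letters are not in those windows. The list was chosen for its link to NF-kB, so shares above those of all windows can follow from that choice. They say nothing about the change in adult cells.

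Other stress programmes were mixed. Of 24 p53 targets 11 rose and 6 fell (12 and 4 with median-ratio scaling). Cdkn1a, the p21 inhibitor of cyclin-dependent kinases, was at 8.51, 8.49 and 18.4 in embryo and 156, 135 and 151 in adult, Gadd45a at 11.3, 6.06 and 9.17 in embryo and 55.5, 53.9 and 61.8 in adult and the p53-induced exonuclease gene Aen at 6.74, 6.06 and 12.5 in embryo and 57.4, 48.3 and 54.7 in adult (log2 changes 3.62, 2.59 and 2.59, adjusted p at most 3.13e-05). Ccng1, another p53 target, fell from 9.05, 8.73 and 14.4 in embryo to 4.69, 2.69 and 2.46 in adult (log2 change -1.46, adjusted p = 0.000457). Of 20 genes of the unfolded protein and amino acid response, 9 rose and 4 fell (11 and 3). Among 19 heat shock genes and chaperones 6 rose and 6 fell (8 and 2), and 3 fell when adult replicate 1 or 2, or embryo replicate 3, was left out. Cryab and Bag3, which serve protein quality control in muscle, were at 11.5, 10.9 and 7.16 in embryo and 129, 141 and 118 in adult and at 60.4, 63.8 and 51.9 in embryo and 364, 343 and 356 in adult (log2 changes 3.61 and 2.58, adjusted p at most 8.97e-08). Hspa1a, whose near-identical copy Hspa1b can share its reads, was at 173, 106 and 135 in embryo and 67.7, 83.1 and 114 in adult with overlapping groups (log2 change -0.64, adjusted p = 0.0345), a call lost with median-ratio scaling, with no filter, with the 2 groups fitted alone and without adult replicate 1 or 2 or embryo replicate 1 or 3 (log2 change from -0.84 to -0.10 over all alternatives).

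Cell cycle control genes were mostly lower in adult cells. Cyclins activate their kinases, which release E2F factors from pocket proteins. Of 41 genes, 2 rose and 28 fell (4 and 25 with median-ratio scaling), with a median of -1.59. All 8 kinases fell (7 with median-ratio scaling), and 9 of 10 cyclins. Cdk1, the kinase of mitosis, was at 34, 42.5 and 36.6 in embryo and 0.0687, 0.527 and 0 in adult (log2 change -5.03 ± 0.25 SE, adjusted p = 3.96e-08). The G1 genes went with it: Cdk4 was at 121, 76.9 and 135 in embryo and 5.65, 11.9 and 12 in adult, Ccnd2 at 54.8, 59 and 87.4 in embryo and 2.57, 3.76 and 1.83 in adult and Ccne1 at 71.6, 110.2 and 45.5 in embryo and 0.188, 0.975 and 0.510 in adult (log2 changes -3.39, -4.20 and -5.56, adjusted p at most 1.05e-06). Ccnd1 differed least of the D cyclins, at 19.2, 8.57 and 26.8 in embryo and 7.25, 4.87 and 2.56 in adult (log2 change -1.65, adjusted p = 0.0025), and Ccnd3 was at 156, 93.3 and 96.6 in embryo and 0, 4.83 and 0 in adult, where a 0 can be a failed estimate. Of 16 pocket proteins and E2F factors 0 rose and 10 fell (0 and 8). Rbl1, the pocket protein of cycling cells, was at 10.2, 11.4 and 9.42 in embryo and 0.0874, 0.288 and 0.468 in adult (adjusted p = 1.37e-06), while Rb1 and Rbl2 were at 2.87, 7.62 and 3.39 in embryo and 5.42, 5.29 and 4.01 in adult and at 3.38, 3.26 and 1.96 in embryo and 1.81, 1.83 and 2.35 in adult and not called (adjusted p = 0.699 and 0.289). The inhibitors of the kinases did not share a direction. Cdkn1c (p57), an imprinted inhibitor that acts as muscle precursors leave the cycle, went from 668, 604 and 446 in embryo to 26.6, 18.2 and 10.1 in adult (log2 change -4.97, adjusted p = 1.35e-07), against the rise of Cdkn1a, and Cdkn1b (p27), at 9.27, 4.33 and 16.7 in embryo and 12.9, 13.7 and 14.8 in adult, was not called (adjusted p = 0.169), but was called higher with median-ratio scaling (1.07) and without embryo replicate 3.

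Late cell cycle genes often carry a CHR element (TTTGAA) near the start, with a CCAAT box upstream, and Cdk1 and E2f8 are shown as examples of decreases with a CHR element in the table. The windows are chr10:69352913-69353162 for Cdk1 and chr7:48881597-48881846 for E2f8, both minus strand, with CHR elements on either strand in capitals.
Cdk1: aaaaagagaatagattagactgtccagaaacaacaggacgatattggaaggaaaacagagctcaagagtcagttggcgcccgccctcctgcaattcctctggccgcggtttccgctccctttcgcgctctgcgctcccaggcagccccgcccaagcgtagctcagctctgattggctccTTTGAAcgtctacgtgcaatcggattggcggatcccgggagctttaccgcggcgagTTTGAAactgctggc
E2f8: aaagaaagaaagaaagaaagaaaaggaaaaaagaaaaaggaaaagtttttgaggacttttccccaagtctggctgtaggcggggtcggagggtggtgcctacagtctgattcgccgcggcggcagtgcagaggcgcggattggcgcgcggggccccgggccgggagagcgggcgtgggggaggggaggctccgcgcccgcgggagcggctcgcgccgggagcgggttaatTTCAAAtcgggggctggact
The Cdk1 elements end 65 and 9 bases before the start and the E2f8 element 14 bases before it. E2f8, a repressor that ends S phase transcription, was at 10.2, 22.5 and 12.3 in embryo and 0.786, 0.544 and 0.0675 in adult (log2 change -3.41, adjusted p = 9.06e-06). Of 20 decreases with a promoter in the table, 5 held a CHR element (25%), 12 a CCAAT box (60%) and 3 the E2F site TTTCGCGC (15%), against 16%, 33.8% and 0.256% of all windows. Of 8 uncalled members 2 held a CHR element (25%, the share of the decreases), 3 a CCAAT box (37.5%) and 0 that E2F site. The E2F variant TTTGGCGC was in 0 of the 20 decreases and 0 of the 8 uncalled members, against 0.417% of all windows. This list was chosen for its role in the cell cycle, so shares above those of all windows can follow from that choice.

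Most chromatin and DNA methylation genes were lower in adult cells. Of 71 chromatin and DNA methylation genes 11 rose and 46 fell (17 and 37 with median-ratio scaling), with a median of -1.10. Dnmt1, which copies DNA methylation after replication, was at 33.8, 35.5 and 40.5 in embryo and 2.6, 2.98 and 1.85 in adult, and its partner gene Uhrf1 at 58.4, 55.5 and 49.7 in embryo and 1.97, 1.69 and 0.780 in adult (log2 changes -3.45 and -4.52, adjusted p at most 9.30e-08). The methyltransferase gene Dnmt3a fell from 24.7, 24.3 and 33.3 in embryo to 4.39, 5.74 and 4.94 in adult and the demethylase gene Tet2 rose from 6.49, 13.5 and 8.4 in embryo to 34.2, 28.1 and 31.4 in adult (adjusted p = 1.51e-06 and 0.000102). Of 17 Polycomb genes 2 rose and 10 fell (3 and 6). Ezh2, the methyltransferase of dividing cells, was at 19.6, 21.9 and 22.3 in embryo and 6.56, 4.7 and 6.55 in adult and Ezh1, its counterpart in resting cells, at 1.35, 1.08 and 1.9 in embryo and 3.06, 4.82 and 7.03 in adult (log2 changes -1.69 and 1.25, adjusted p at most 0.00253). In the embryo libraries Ezh2 was more than 10 times Ezh1 in FPKM, and in adult replicates 2 and 3 Ezh1 was slightly the higher. Kdm6b, a demethylase of the Polycomb mark, rose from 26.4, 32.8 and 37.2 in embryo to 202, 193 and 228 in adult. Of 21 genes of remodelling and chromosome architecture 1 rose and 19 fell (2 and 16). The 1 that rose was Lmna, for the lamins A and C of the nuclear envelope, from 42, 31.8 and 52.1 in embryo to 309.8, 293 and 307 in adult, whereas Lmnb1 fell from 91.8, 97.8 and 99.5 in embryo to 5.61, 4.48 and 5.51 in adult (log2 changes 2.85 and -3.98, adjusted p at most 1.01e-07). Cbx5 and Hmgb3, a heterochromatin protein and a DNA-bending protein, fell by 3.61 and 3.70 on the log2 scale.

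**Figure D4:**
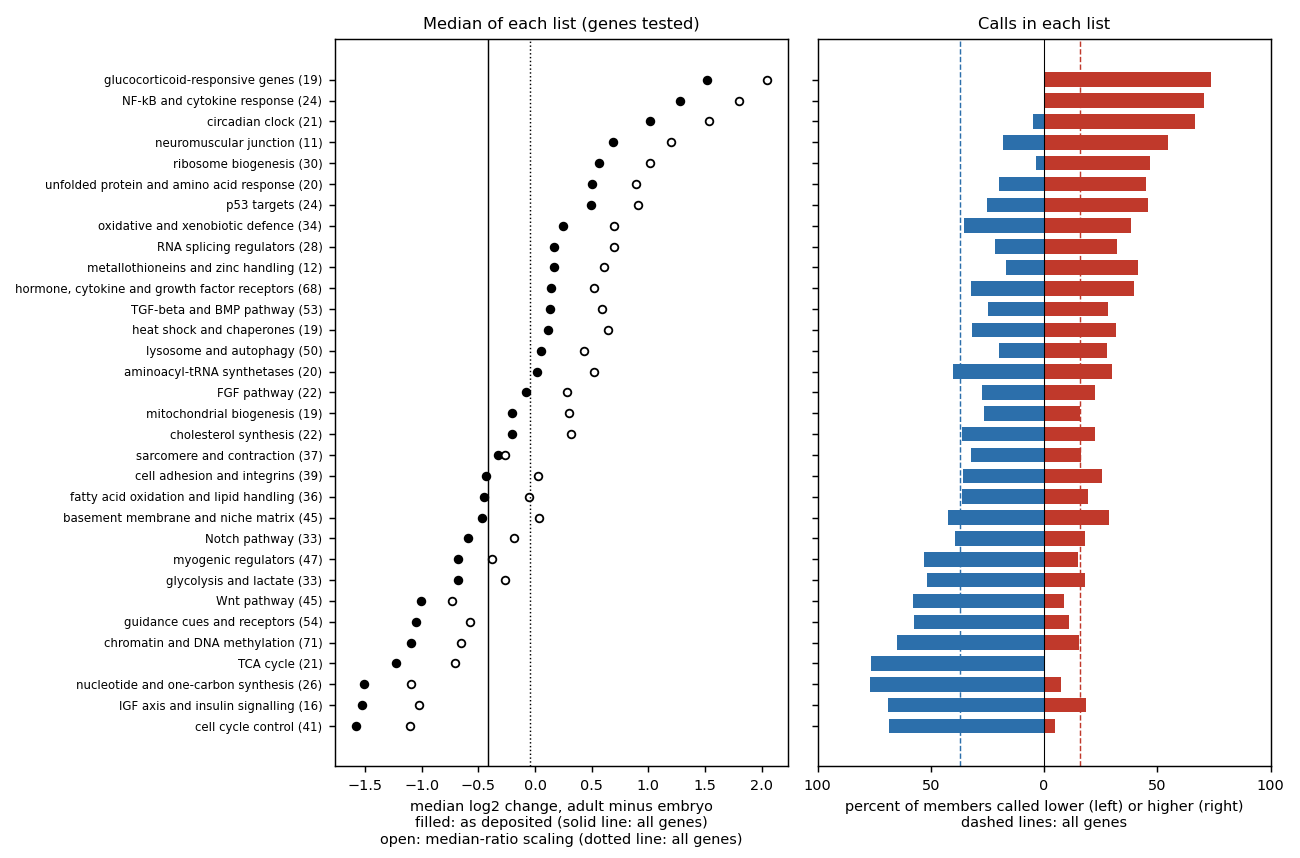
Gene lists by the median log2 change of their tested members (left, filled points as deposited and open points with median-ratio scaling, lines for the medians of all genes) and by the percent of members called higher (red) or lower (blue) in adult (right, with 15.8% and 36.9% of all genes as lines). The clock, glucocorticoid and NF-kB lists lie on the higher side under both scalings, and the cell cycle, Wnt and TCA lists on the lower side.

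Genes for making nucleotides and for making ribosomes parted. Of 26 enzymes of nucleotide and one-carbon synthesis 2 rose and 20 fell (4 and 17 with median-ratio scaling). Rrm2, the ribonucleotide reductase subunit of S phase, was at 57.2, 58.7 and 48.2 in embryo and 1.44, 1.28 and 1.88 in adult, Tyms, which makes thymidylate, at 23.1, 22 and 18 in embryo and 2.96, 1.35 and 2.34 in adult and Phgdh, which starts serine synthesis, at 34.9, 34.4 and 42.5 in embryo and 5.1, 3.62 and 6.45 in adult (log2 changes -4.46, -2.80 and -2.68, adjusted p at most 8.02e-06). Mthfd2, a mitochondrial folate enzyme, rose from 10.4, 10.4 and 11 in embryo to 28.5, 30.1 and 33.7 in adult (adjusted p = 3.04e-05). Of 30 ribosome biogenesis factors, by contrast, 14 rose and 1 fell (25 and 0 with median-ratio scaling, 21 and 1 with quantile normalization). Ddx21, a nucleolar helicase, was at 18.7, 18.6 and 22 in embryo and 86.4, 72.4 and 77.9 in adult, Gnl3 (nucleostemin) at 22.6, 17 and 22.8 in embryo and 86.4, 76.9 and 71.8 in adult and Rrp9 at 8.94, 8.26 and 7.56 in embryo and 56.2, 45.6 and 53.8 in adult (log2 changes 1.94, 1.87 and 2.51, adjusted p at most 4.11e-05). The adult values of these 3 genes were at least 3 times the embryo values. Npm1 was the 1 that fell, from 358, 462 and 400.1 in embryo to 299, 236 and 229 in adult (adjusted p = 0.0142), a call lost with median-ratio scaling and without adult replicate 3. The cytosolic ribosomal proteins themselves gave 0 higher and 27 lower of 82, 16 lower without adult replicate 1 or 3, but 19 higher and 4 lower with median-ratio scaling and 1 and 57 with quantile normalization, so their direction depended on the scaling. The 76 genes of the mitochondrial ribosome gave 1 higher and 53 lower (3 and 35). Of 57 translation initiation factors 12 rose and 18 fell, but 25 rose and 6 fell with median-ratio scaling. Eif5, which checks the start codon, rose under both, from 28.6, 29.9 and 31.7 in embryo to 120.5, 124 and 126 in adult (log2 change 2.00, adjusted p = 1.28e-06).

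Regulators of splicing moved both ways. Of 28 tested 9 rose and 6 fell (15 and 4 with median-ratio scaling). Rbfox2, which steers muscle exons, was at 39.9, 42.3 and 49 in embryo and 166, 132 and 198 in adult (log2 change 1.88, adjusted p = 6.20e-06). In the Mbnl family, Mbnl2 went from 27.6, 37.5 and 37.8 in embryo to 71.2, 62.4 and 63.9 in adult and Mbnl3 from 5.75, 6.15 and 8.85 in embryo to 0.0894, 0 and 0 in adult (log2 changes 0.93 and -2.92, adjusted p at most 0.000519), and Mbnl1, at 18.5, 21.4 and 21.6 in embryo and 25.3, 27.8 and 30.1 in adult, was not called (adjusted p = 0.0626) but passed with either rescaling.

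Energy metabolism was lower at many steps in adult cells, with a few enzymes and regulators on the other side. Of 21 enzymes of the TCA cycle 0 rose and 16 fell (2 and 13 with median-ratio scaling). Of 37 genes grouped by symbol as complex I subunits of the respiratory chain 1 rose and 33 fell (1 and 28). Grouping by symbol can also take in related genes whose products are not subunits. Idh2 was at 99.2, 86.1 and 89.8 in embryo and 12.6, 8.78 and 6.63 in adult and Cs (citrate synthase) at 52.6, 48.8 and 56 in embryo and 23.3, 20.0 and 16.6 in adult (log2 changes -3.20 and -1.36, adjusted p at most 7.24e-05). Idh3b was at 23.5, 36.4 and 35.9 in embryo and had an entry of 0 in each adult library, which may be a failed estimate. Of 19 glycolytic enzymes 3 rose and 12 fell (4 and 11). Eno1 was at 129.8, 157 and 106 in embryo and 21.7, 15.9 and 14 in adult and Tpi1 at 66.8, 45.3 and 58.5 in embryo and 7.86, 11.6 and 8.42 in adult (log2 changes -2.86 and -2.49, adjusted p at most 1.12e-06). The first, committing steps differed by isoform. Hk2, the inducible hexokinase, rose from 7.89, 5.34 and 9.43 in embryo to 50.5, 44.9 and 45.2 in adult and the phosphofructokinase gene Pfkp from 0, 8.2 and 0 in embryo to 30.7, 27.4 and 42 in adult, while Pfkl and Pfkm fell by 1.99 and 1.84 on the log2 scale (adjusted p at most 0.000282 for the 4). The pyruvate dehydrogenase kinases, which close the path from sugar to the TCA cycle, split in the same way. Pdk4, induced in fasting, was at 1.35, 1.87 and 2.84 in embryo and 16.3, 17.9 and 13.6 in adult and Pdk3 at 13, 22.6 and 17.6 in embryo and 0.259, 1.76 and 4.1 in adult (log2 changes 2.51 and -2.81, adjusted p at most 0.000117). Of 19 enzymes of fatty acid oxidation 1 rose and 9 fell (2 and 6). The fatty acid carrier Fabp5 fell from 226, 339 and 221 in embryo to 13.5, 6.74 and 5.41 in adult, and the lipase genes Pnpla2 and Lpl rose from 3.85, 0 and 5.68 in embryo to 23.3, 23.2 and 32.3 in adult and from 1.01, 0.884 and 1.23 in embryo to 8.53, 10.8 and 7.1 in adult (adjusted p at most 0.000438).

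The basement membrane genes of the satellite cell niche moved both ways. Laminins join 3 chains into the sheet on which the cell sits, and of 11 chains 5 rose and 4 fell (5 and 3 with median-ratio scaling). Lama2, the alpha chain of adult muscle laminin, was at 11.1, 16.4 and 10.7 in embryo and 43.6, 40.6 and 40.4 in adult, and Lamb2 at 15.6, 20.6 and 17.8 in embryo and 42.4, 45.6 and 38.6 in adult. Lama4 and Lamb1, chains of embryonic and vascular laminins, were at 37, 34.5 and 48 in embryo and 3.99, 3.93 and 4.22 in adult and at 62.1, 65.6 and 67.5 in embryo and 9.5, 10.1 and 6.84 in adult. These 4 changes were 1.66, 1.19, -3.00 and -2.77 on the log2 scale (adjusted p at most 4.62e-05), with no overlap between groups. Lama3 rose from 0.303, 0.284 and 1.22 in embryo to 21.4, 22.3 and 25.5 in adult. Among network collagens Col15a1 rose from 13.8, 17.7 and 8.18 in embryo to 59, 49.8 and 50.2 in adult and Col18a1 fell from 35.1, 44.9 and 36.1 in embryo to 7.6, 7.91 and 7.97 in adult (adjusted p at most 1.33e-05), while Col4a1, the most abundant of the 3 in adult cells, was at 98.5, 105 and 122 in embryo and 101, 83 and 83.3 in adult (adjusted p = 0.0987, called lower with quantile normalization, above 0 with median-ratio scaling). Both large proteoglycan genes were called, in opposite directions. Hspg2 (perlecan) went from 38.5, 33.6 and 36.8 in embryo to 86.4, 76 and 77 in adult and Agrn (agrin) from 33.5, 38.3 and 70.2 in embryo to 6.12, 5.63 and 6.81 in adult (log2 changes 1.11 and -2.68, adjusted p at most 4.47e-05). Col5a3, for a niche collagen, rose from 3.42, 1.31 and 2.63 in embryo to 36.5, 43.3 and 39.5 in adult. Of 13 genes of the provisional matrix of growing tissue, 2 rose and 8 fell (3 and 7): Vcan (versican) was at 52.5, 79.3 and 64.9 in embryo and 6.97, 5.54 and 5.99 in adult, Postn (periostin) at 185, 135 and 155 in embryo and 18.3, 16.7 and 15.7 in adult, and Cd44, the hyaluronan receptor, at 30.0, 19.2 and 21.7 in embryo and 199.9, 207 and 255 in adult (log2 changes -3.20, -3.14 and 3.18). Cartilage markers summed to 56.7 to 103 FPKM in embryo and 37.6 to 46.5 in adult, and of the 8 markers 2 rose and 6 fell. Col2a1, the main cartilage collagen, was at 32.1, 44.8 and 58.3 in embryo and 0, 0.0618 and 0.283 in adult, and Comp and Sox9, the 2 that rose, were at 1.47, 3.9 and 1.61 in embryo and 12, 9.23 and 7.4 in adult and at 9.52, 6.94 and 14.7 in embryo and 34.4, 28.8 and 29.7 in adult. Whether such cells or fibroblasts, whose sums are given above, account for a part of the matrix decreases was not tested.

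Adhesion molecules of the cell surface moved both ways. Of 17 integrins 3 rose and 7 fell (5 and 6 with median-ratio scaling, 4 and 3 with quantile normalization). As deposited these are 17.6% and 41.2%, near the 15.8% and 36.9% of all genes. Besides Itga7, Itgb4 of hemidesmosomes rose, from 0, 0 and 1.13 in embryo to 5.28, 5.92 and 6.74 in adult, and Itga4, which binds VCAM and fibronectin, fell from 5.8, 8.99 and 7.78 in embryo to 0.318, 0.162 and 0.461 in adult (adjusted p at most 0.000111). Itgb1, the common partner chain, was at 118, 109.6 and 143 in embryo and 156, 137 and 117 in adult with overlapping groups (adjusted p = 0.566; called higher with median-ratio scaling). Among cadherins, Cdh11 and Cdh2 (N-cadherin) were at 58.6, 45.1 and 76.8 in embryo and 4.96, 3.52 and 4.24 in adult and at 18, 12.8 and 29.2 in embryo and 1.65, 1.63 and 2.69 in adult, and Cdh13, which has no cytoplasmic part, at 2.11, 0.315 and 2.21 in embryo and 39.7, 44.3 and 41.2 in adult (log2 changes -3.52, -2.76 and 4.18, adjusted p at most 7.31e-06). Cdh15 (M-cadherin) of the contact with the fibre was at 22.9, 21.5 and 16.1 in embryo and 22.2, 27.4 and 29.3 in adult and not called (adjusted p = 0.147; called higher with median-ratio scaling). The syndecans, co-receptors for growth factors, went apart: Sdc4 rose from 9.05, 4.89 and 12.4 in embryo to 339, 336 and 319 in adult and Sdc3 fell from 30.1, 30.0 and 34.6 in embryo to 3.57, 1.66 and 1.33 in adult (log2 changes 5.17 and -3.41, adjusted p at most 6.99e-07). The tetraspanin genes Cd82 and Cd9 rose by 4.12 and 3.31, and Alcam and Mcam fell by 3.78 and 2.68.

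Guidance molecules, which steer axons and migrating cells, were lower as a class: of 54 genes 6 rose and 31 fell (6 and 26 with median-ratio scaling), with a median of -1.05. Of 8 ephrins 0 rose and 7 fell (0 and 5), of 10 Eph receptors 2 and 6 (2 and 6) and of 16 semaphorins 2 and 8 (2 and 7). Sema3a was at 15.2, 13 and 17.1 in embryo and 0.258, 0.167 and 0.110 in adult, Epha3 at 19.5, 14 and 34.1 in embryo and 1.49, 2.67 and 2.3 in adult and Slit2 at 10.8, 8.81 and 13 in embryo and 0.249, 0.497 and 0.771 in adult (log2 changes -3.77, -2.83 and -2.98, adjusted p at most 2.76e-05). Every adult value of the 3 was below every embryo value. Epha2 and Sema3b were among the exceptions, at 7.42, 8.77 and 9.87 in embryo and 23.6, 16.5 and 18.4 in adult and at 1.88, 0 and 1.19 in embryo and 4.94, 5.02 and 5.26 in adult (adjusted p = 0.00396 and 0.00218). Neuronal markers summed to 24.5 to 27.0 FPKM in embryo and 13.9 to 17.7 in adult, and their part in these decreases was not tested.

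Contractile genes went in both directions. Of 37 sarcomere genes 6 rose and 12 fell (8 and 7 with median-ratio scaling, 10 and 6 with quantile normalization). Of 7 developmental isoforms 0 rose and 4 fell (0 and 2), the 4 becoming 2 when adult replicate 1 or 3, or embryo replicate 2, was left out. Fast-fibre isoforms gave 3 higher, 1 lower and 8 not called of 12 (4 higher and 1 lower with median-ratio scaling). Slow-fibre isoforms gave 2 higher and 2 lower of 4 under both scalings. Myh8, the perinatal myosin heavy chain, was at 3.55, 5.47 and 1.63 in embryo and 0, 0 and 0.0206 in adult (log2 change -2.08, adjusted p = 0.000554), and Myh3, the embryonic chain, at 0.311, 0.605 and 0.670 in embryo and 0.0287, 0.0966 and 0.0150 in adult and not called (adjusted p = 0.111), but called lower with a pseudocount of 0.1 (log2 change -2.09 against -0.54) and with the 2 groups fitted alone. The adult fast chain Myh2 was at most 0.104 FPKM in all 6 libraries. Acta1 and Actn3, for skeletal actin and fast-fibre actinin, were at 0.478, 0.365 and 1.09 in embryo and 10.7, 6.99 and 1.76 in adult and at 0.696, 0.665 and 2.97 in embryo and 16.1, 17.7 and 15.5 in adult (log2 changes 1.98 and 2.96, adjusted p at most 0.00314). Des, the intermediate filament gene of all muscle cells, rose most, from 16.9, 25.5 and 11 in embryo to 238, 285 and 265 in adult (log2 change 3.88, adjusted p = 2.02e-07). The tropomyosins Tpm1 and Tpm2 fell by 2.51 and 1.90.

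Postsynaptic genes of the neuromuscular junction were mostly higher. Of 11 tested 6 rose and 2 fell under median-ratio scaling too (6 and 1 with quantile normalization). Musk, the agrin-activated kinase, was at 0.814, 0 and 0 in embryo and 29.8, 37.1 and 33.8 in adult, Rapsn, which clusters the acetylcholine receptor, at 2.51, 0 and 0.317 in embryo and 8.36, 7.06 and 5.57 in adult and Dmd, which encodes dystrophin, at 0.566, 0.654 and 0.574 in embryo and 9.99, 9.91 and 12.7 in adult (log2 changes 4.82, 2.25 and 2.89, adjusted p at most 0.00135). The receptor subunit genes Chrnb1 and Chrna1 were at 6.04, 8.46 and 5.67 in embryo and 64.2, 60.1 and 60.4 in adult and at 1.76, 1.86 and 0.888 in embryo and 5.45, 4.94 and 3.71 in adult (adjusted p at most 0.00268). The 2 that fell act with Musk from outside the cell or beside it: Agrn, given above, and the co-receptor gene Lrp4, from 6.58, 3.69 and 7.43 in embryo to 2.3, 2.12 and 1.43 in adult (adjusted p = 0.00335), the latter call lost with quantile normalization.

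Related genes were also compared as pairs within each library, as the log2 ratio of the second to the first (FPKM + 1), a description without a test. The ratio of Lmna to Lmnb1 averaged -1.21 in embryo and 5.62 in adult libraries. That of Fbn1 to Fbn2, the fibrillins of elastic microfibrils, averaged -0.17 and 4.35, and Fbn2 itself was at 84.9, 78.6 and 88.6 in embryo and 0.274, 0.175 and 0.140 in adult. The ratio of Ezh1 to Ezh2 went from -3.20 to -0.26, that of Igf2bp2 to Igf2bp1 from 0.57 to 3.42 and that of Igf1 to Igf2 from -5.48 to -1.66. Of the 18 pairs, 3 had a gene under 1 FPKM on average in both groups, so that the ratio says little: Chrng and Chrne, Myh3 and Myh2, and Cox6a1 and Cox6a2, the last listed at 0 in all 6 libraries. In the other 15 pairs the adult ratios did not overlap the embryo ratios, and 9 were higher and 6 lower in adult. Among the 6, the ratio of Agrn to Hspg2 went from 0.30 to -3.49, that of Dnmt3a to Dnmt3b from 3.66 to 0.66 and that of Ccnd2 to Ccnd1 from 1.93 to -0.61. The ratio of Fgfr4 to Fgfr1 went from 0.85 to -1.22, that of Slc2a4 to Slc2a1, insulin-responsive against basal glucose transporter, from -3.47 to -5.68, and that of Ldhb to Ldha from -3.29 to -4.28.

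**Figure D5:**
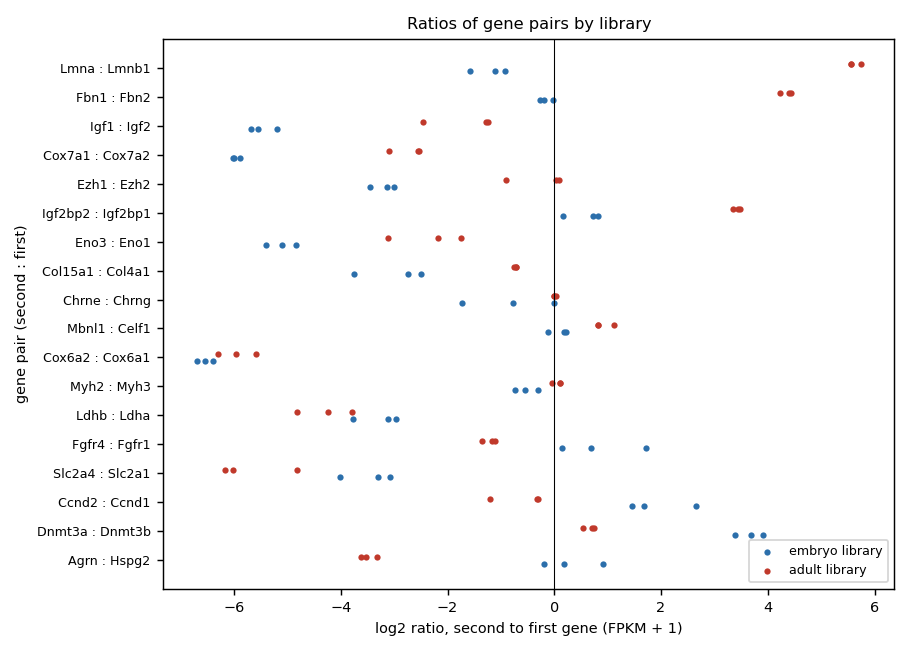
Log2 ratio of the second to the first gene (x axis, FPKM + 1 of both) of 18 gene pairs (y axis) in each embryo library (blue) and adult library (red). Leaving out the 3 pairs with a gene under 1 FPKM in both groups, the 2 groups are separate in 15 pairs, with 9 shifted to the right and 6 to the left in adult.

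The native calls were then set beside the change of the stem-cell-derived cells, which share no library with the native groups. Both comparisons, however, used the same spread per gene, estimated over all 12 libraries. A gene with a small spread is called more easily in both, so their calls are not independent. No other scaling was applied to the transplant comparison, so the counts in this paragraph are as deposited. Transplant against teratoma called 531 genes (4.18%) higher and 2343 (18.5%) lower in the same fit. Of the native increases, 202 were also higher in the transplant: 10.1% of them, against 4.18% of all genes. These 202 were 38.0% of the transplant increases, while 15.8% of all genes were higher in adult cells. Another 382 native increases were lower in the transplant (19.03% of the native increases and 16.3% of the transplant decreases). Those shares lie near the 18.5% and 15.8% of all genes. Of the native decreases, 1101 were also lower in the transplant (23.5% of them, 47.0% of the transplant decreases). All genes gave 18.5% and 36.9%. Another 119 were higher (2.54% and 22.4%), against 4.18% and 36.9% of all genes. Hmox1, for example, was at 226 ± 28.2 FPKM (mean ± SD, n = 3) in teratoma and 94.3 ± 24.9 in transplant, and Gal at 17 ± 10.01 and 14.6 ± 12.6, both far from the adult levels of 1154 ± 151 and 455 ± 37.7. Dlk1 was at 149 ± 14.8 and 6.48 ± 3.63, against 285 ± 40.7 in embryo and 1.09 ± 0.821 in adult, and Cdk1 at 14.7 ± 0.353 and 1.15 ± 0.635. Bmp6, higher in adult than in embryo, was at 14.49 ± 4.47 in teratoma and 53.4 ± 17.8 in transplant, above the adult mean of 21.3 ± 6.13.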

How the data were processed

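RNA-seq was done on 12 libraries of sorted cells, prepared with a stranded total RNA kit for low input, per the labels' protocols. Values are FPKM as the authors deposited them, in 1 table. Per the submitters' processing notes, the tools were Partek, Cufflinks (2.2.1.0), TopHat (0.7) and CASAVA (1.8.2), and mm10 was the mouse build; what each tool did is not given in the sources used here. FPKM hold no read counts, so no interval or detection limit could be given, and a value of exactly 0 may mean that estimation failed. Rows of 240 repeated symbols among 23746 were summed, which left 23284 symbols. From these, log2(FPKM + 1) of the 12699 genes that reached 1 FPKM in 3 or more of 12 libraries was fitted with limma 3.58.1 in R 4.3.3 (4 group means, variance trend, Benjamini-Hochberg adjustment over all 12699 genes, call under 0.05). With 3 libraries against 3, an exact permutation test of a single gene cannot go below 0.1, so no such test was used. On simulated data of the adult against embryo comparison (12699 genes), calls were made for 30 of 100 genes with a true log2 change of 1, 81 of 100 with a change of 2 and 6 of 12499 without one. The simulation changed only those 100 and 100 genes and drew independent normal noise, while 6699 genes were called in the data. Its Benjamini-Hochberg cutoff was therefore stricter, and its shares of recovered genes do not describe this comparison.

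The members, gene lists, motifs and pairs were chosen with earlier results of these data known, so counts over a list are descriptions, read beside the share of all genes called. Named genes were the 15 largest called changes per direction (groups not overlapping, higher mean at least 5 FPKM, histones, ribosomal proteins, mitochondrial, small RNA and predicted genes left out), up to 4 called genes per direction of each list and family, list members whose role is described, and both genes of each pair. Some genes that these rules or lists hold are not reported here by name. Alternatives were another pseudocount, other filters, median-ratio scaling, quantile normalization, removal of small RNA, library weights, a fit of the 2 groups alone, a replicate block and each library left out. Promoters came from RefSeq (GRCm38.p6).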

Additional observations from a re-analysis of the deposited data

How the results depend on the processing

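Of 12699 genes, 6699 were called. A filter at a mean of 5 FPKM, which tests fewer genes, left 4370 called and 2782 lower. Median-ratio scaling gave 3278 higher, and quantile normalization 3038 higher and 3125 lower. The median change of all genes, -0.42, was -0.55 with a pseudocount of 0.1, -0.12 with no filter, -0.042 with median-ratio scaling and -0.0075 with quantile normalization. With each library left out in turn, 5971 to 6720 genes were called, 1747 to 2060 higher and 4193 to 4817 lower, and the median lay between -0.46 and -0.33. Replicate numbers were shared between groups, but same-numbered libraries did not deviate together (correlations of -0.0951, -0.0728 and -0.0115). These values gave no sign of pairing by number, though with 3 libraries per group such a check can miss a weak shared effect. With the replicate block 6551 genes were called, 1939 higher and 4612 lower. Of 269 genes named and tested, 236 kept direction and side of the threshold under all 16 alternatives, and the sign turned only in genes not called as deposited. With median-ratio scaling Col4a1 was at 0.25, Fkbp5 at 0.33, Gstp1 at 0.39, Notch2 at 0.47 (called), Rbl2 at 0.020, Spry1 at 0.054, Tead1 at 0.097 and Tsc22d3 at 0.046. With quantile normalization Fkbp5 was at 0.32, Gstp1 at 0.32, Itgb1 at -0.044, Notch2 at 0.024, Rbl2 at 0.31 and Tsc22d3 at 0.16. With each library left out in turn, the change was -0.34 to 0.17 for Gstp1 (above 0 without adult replicate 2 or embryo replicate 3), -0.16 to 0.045 for Notch2 (above 0 without embryo replicate 3), -0.067 to 0.51 for Rb1 (below 0 without embryo replicate 1), -0.85 to 0.025 for Tsc22d3 (above 0 without embryo replicate 1) and -0.33 to 0.64 for Nqo1 (below 0 without adult replicate 1). Unless a value or the construction of an alternative shows it, the cause was not tested. Of the list counts recomputed under the alternatives, 1330 stayed within 1.5 times and 110 did not, 26 of these with median-ratio scaling. The share of native decreases also called lower in the transplant was 22.4% to 30.7% over the alternatives, and that of increases called higher 7.93% to 11.1%. Only the native calls were varied for these ranges. The transplant calls were kept as deposited, so how far they depend on the processing was not examined. Read depth is unknown, so how far it limits low genes cannot be given.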
